A study of Mus musculus with 6 samples.

Results

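The 10 genes described here make or regulate the MHC class I antigen presentation pathway: the classical heavy chain genes H2-K1 and H2-D1, the light chain gene B2m, the peptide transporter genes Tap1 and Tap2, the tapasin gene Tapbp, the immunoproteasome subunit genes Psmb8, Psmb9 and Psmb10, and the transactivator gene Nlrc5. They were taken by gene name from the deposited tables, in which all 10 were found among 49671 genes. RNA came from spleen cells passed over CD3+ T cell enrichment columns, from female F1 mice of C57BL/6 (mus) mothers heterozygous for an Xist deletion and M. m. castaneus (cast) fathers. In 3 unstimulated libraries the cells were collected at once, and in 3 stimulated libraries they had been cultured for 48 h with plate-bound anti-CD3 and soluble anti-CD28, antibodies that trigger the T cell receptor and its costimulatory receptor. Both groups carried the same cross, so every library held a mus and a cast copy of each of the 10 genes, all autosomal. The labels call the replicates biological and give neither the age of the mice nor whether equal numbers are the same animal. Culture and stimulation went together, since no cells were cultured without the antibodies, and their effects cannot be told apart.

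Class I molecules show peptides from the cell's own proteins to CD8+ T cells and are read by NK cells. The proteasome cuts proteins into peptides, and its immunoproteasome form carries Psmb8, Psmb9 and Psmb10 in place of the constitutive catalytic subunits Psmb5, Psmb6 and Psmb7. The transporter made of Tap1 and Tap2 brings peptides into the endoplasmic reticulum, where tapasin bridges it to a waiting heavy chain bound to beta-2 microglobulin. NLRC5 acts in the nucleus on class I promoters, with RFX, NF-Y and CREB-family proteins that hold the DNA, and lymphocytes are known for high class I levels. NF-kB and interferon regulatory factors act on the same promoters.

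By GENCODE M21 on mm10, 7 of the 10 genes lie on chromosome 17, 2 on chromosome 8 and 1 on chromosome 2. On chromosome 17, in the MHC, Tapbp (33915899 to 33929292, plus strand) and H2-K1 (33996017 to 34000347, minus strand) come first. Psmb9 (34181987 to 34187764, minus), Tap1 (34187553 to 34197225, plus), Psmb8 (34197721 to 34201454, plus) and Tap2 (34203527 to 34216321, plus) follow as a tight cluster, in which Psmb9 and Tap1 overlap head to head by 212 bases and Tap1 ends 495 bases before Psmb8. H2-D1 (35262730 to 35267499, plus) lies 1.05 Mb (megabases) beyond Tap2. Nlrc5 (94434356 to 94527272, plus) and Psmb10 (105935735 to 105938444, minus) are on chromosome 8, and B2m (122147686 to 122153083, plus) is on chromosome 2.

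Upstream sequences of 5 members, in 4 windows of which Psmb9 and Tap1 share 1, are shown because class I promoters are known for a set of short control elements, whose letters were searched for in them, and because these genes did not move alike. They are RefSeq sequences of GRCm38.p6, 5' to 3' on the gene's strand, of the 250 bases before the RefSeq start (chr17:34000348-34000597, minus strand, for H2-K1, chr17:35262844-35263093, plus, for H2-D1 and chr2:122147437-122147686, plus, for B2m) and of the 225 bases between the RefSeq starts of Psmb9 and Tap1 (chr17:34187331-34187555, given on the plus strand). RefSeq and GENCODE starts differ: the H2-D1 window lies inside the GENCODE span of H2-D1, and the Psmb9-Tap1 interval inside that of Psmb9. Capitals mark matches, on either strand, to a kappa B-like motif (GGG, any 5 bases, CCC), an interferon regulatory factor core (AANNGAAA), a cAMP response element core (TGACG) and a CCAAT box (CCAAT).
H2-K1: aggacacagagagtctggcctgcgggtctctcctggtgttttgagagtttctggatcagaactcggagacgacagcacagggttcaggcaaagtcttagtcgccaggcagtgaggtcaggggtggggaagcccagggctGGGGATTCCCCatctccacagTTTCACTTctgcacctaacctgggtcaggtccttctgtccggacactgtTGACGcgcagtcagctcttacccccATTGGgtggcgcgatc
H2-D1: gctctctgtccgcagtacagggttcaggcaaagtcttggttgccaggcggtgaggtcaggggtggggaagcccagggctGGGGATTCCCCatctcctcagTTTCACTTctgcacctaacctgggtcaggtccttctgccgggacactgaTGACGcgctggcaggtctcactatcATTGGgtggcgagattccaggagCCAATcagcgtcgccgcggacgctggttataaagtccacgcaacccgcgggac
B2m: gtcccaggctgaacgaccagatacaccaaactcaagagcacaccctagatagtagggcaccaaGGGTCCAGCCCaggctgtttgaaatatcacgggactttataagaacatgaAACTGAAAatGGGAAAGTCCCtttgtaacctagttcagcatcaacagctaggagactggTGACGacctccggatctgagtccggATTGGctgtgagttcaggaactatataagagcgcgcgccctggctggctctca
Psmb9-Tap1: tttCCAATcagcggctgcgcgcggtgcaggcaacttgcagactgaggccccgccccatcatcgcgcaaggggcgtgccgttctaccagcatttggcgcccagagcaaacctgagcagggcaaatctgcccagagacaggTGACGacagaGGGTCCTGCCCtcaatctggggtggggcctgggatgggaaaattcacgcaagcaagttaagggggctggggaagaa

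The H2-K1 and H2-D1 windows held 174 identical bases of 190 aligned (91.6%) and the same series of motifs, a kappa B-like match followed by an interferon regulatory factor core, TGACG and CCAAT. In H2-K1 their first bases lay 111, 90, 41 and 16 bases before the RefSeq start, and in H2-D1 171, 150, 101 and 76, with a further CCAAT match at 53. These distances depend on which start is annotated, and the GENCODE start of H2-D1 lies further upstream. The B2m window held all 4 motifs, with 2 kappa B-like matches. The interval between Psmb9 and Tap1 held a kappa B-like match, TGACG and CCAAT but no AANNGAAA. Of the 32851 RefSeq windows of the same length 12.2% held the kappa B-like motif, 21.3% AANNGAAA, 17.8% TGACG and 33.8% CCAAT, and 1.5% held both of the first pair. No match overlapped another. Windows were at hand for 8 of the 10 genes (not for Nlrc5 and Tap2). In Tapbp only CCAAT matched, 2 times, and in Psmb8 and Psmb10 none of the 4 motifs did. A match is a run of letters, not a measured binding site.

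Expression of both alleles together was deposited as RPKM, a read density scaled to gene length in kilobases and to library size. Among the 10 genes, B2m stood highest in unstimulated cells with a mean of 1259 RPKM, followed by H2-D1 (472) and H2-K1 (450.4), whose libraries overlapped. Tapbp (66.7) came next, above Psmb8 (44.6) and Nlrc5 (44.0), which overlapped, then Tap2 (39.1) and Tap1 (36.3), which overlapped too, and Psmb10 (25.3) and Psmb9 (17.6) stood lowest. After stimulation B2m, H2-D1 and H2-K1 were still the 3 most abundant, at 838, 248 and 234 RPKM, but the order below them was another one: Psmb8 (70.6), Tap1 (42.0), Tapbp (37.5), Tap2 (28.2), Psmb9 (26.0), Psmb10 (21.8) and, at the bottom, Nlrc5 (13.7). Among 13288 genes tested, ranked by mean RPKM, B2m went from place 13 to 27, H2-D1 from 52 to 146, Psmb8 from 921 to 566 and Nlrc5 from 944 to 3572.

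**Figure D1:**
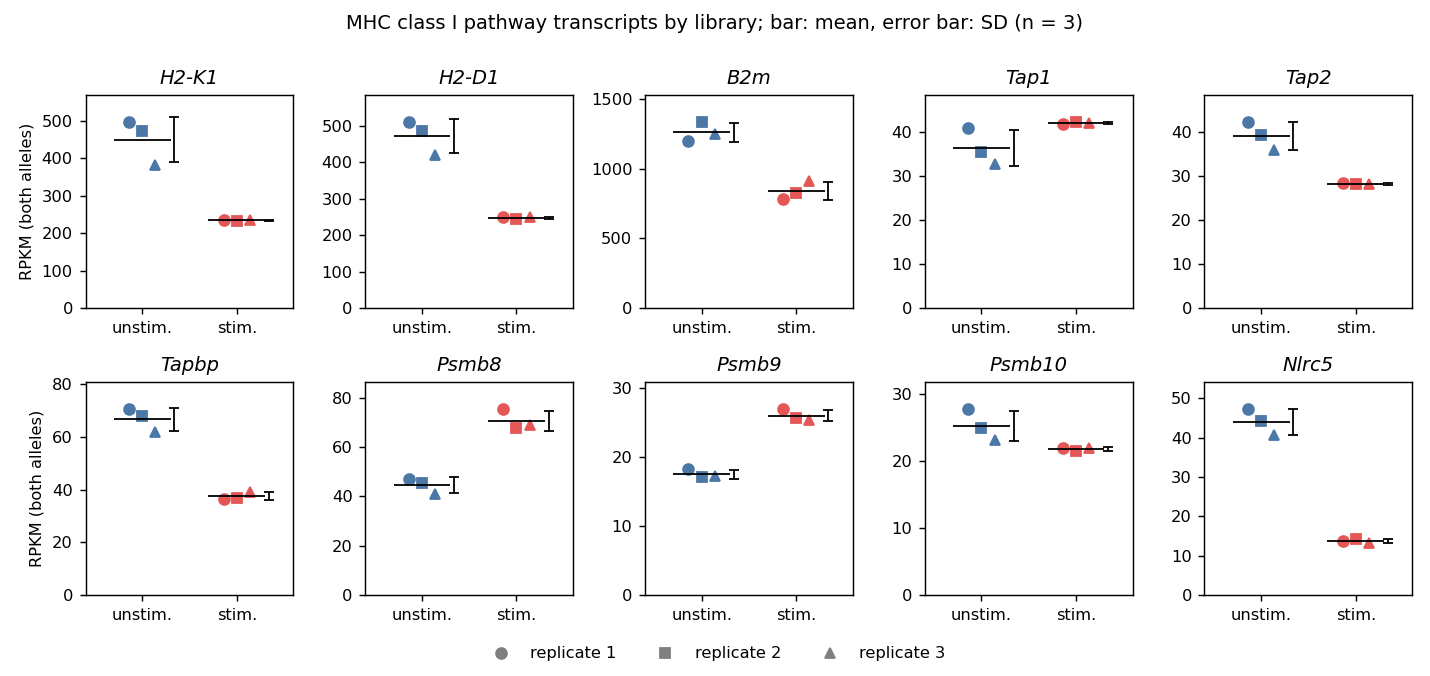
RPKM of both alleles (vertical axis, linear from 0, a scale for each gene) of the 10 genes in the 3 unstimulated and 3 stimulated libraries, with points for libraries (circle, square and triangle for replicates 1, 2 and 3), a bar for the mean and an error bar for the SD (n = 3). No gene's groups overlap, and Psmb8, Psmb9 and Tap1 are the ones with the stimulated libraries on top.

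Stimulation went with less RNA of the heavy chains, tapasin and the transactivator Nlrc5, and with more RNA of the immunoproteasome subunits Psmb8 and Psmb9. The light chain gene B2m and Tap2 were lower in RPKM as deposited, but whether their falls were called hung on the scaling. All 10 genes reached the level needed for testing, 1 RPKM or more in 3 or more libraries. By limma on log2(RPKM + 1), with Benjamini-Hochberg adjusted p-values over all genes tested and 0.05 as the threshold, 2 of the 10 were higher, 7 lower and 1, Tap1, did not pass. Of all genes tested 31.2% were called higher and 48.9% lower, 80.1% in all, so that 9 called of 10 is near the share of all genes. The groups did not overlap for any of the 10, as for 83.5% of all genes. Their median log2 fold change was -0.52, against -0.24 over all genes tested. That shift of the median gene depends on scaling, and after centring each library on its median the 10 genes had a median of -0.26 against 0.02 over all genes, with 3 higher and 4 lower, where 40.9% and 39.2% of all genes were called. Summed allelic counts in edgeR gave 3 higher and 4 lower, against 35.8% and 38.5% of all genes. In both of these alternatives B2m, Tap2 and Psmb10 dropped out of the lower genes, and Tap1 joined the higher ones.

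H2-K1, one of the heavy chains that present peptides to CD8+ T cells, had 496, 473 and 382 RPKM in the unstimulated libraries, in order of replicate number, and reached 235, 232 and 236 RPKM after stimulation. The groups stood well apart, and the stimulated libraries lay close together while unstimulated replicate 3 was the lowest of its group. H2-K1 fell 1.92-fold, with means of 450.4 ± 60.3 and 234 ± 1.83 RPKM (SD, n = 3 each, log2 fold change -0.93, SE 0.109, limma adjusted p = 0.000227). H2-D1, the other classical heavy chain gene of C57BL/6, had 509, 487 and 420.3 RPKM unstimulated and 251, 245 and 249 stimulated. It showed the same picture, with unstimulated replicate 3 lowest and no overlap. H2-D1 fell from 472 ± 46.4 to 248 ± 2.64 RPKM (SD, n = 3 each, log2 -0.92, SE 0.0902, limma adjusted p = 9.64e-05). The pair kept a near constant proportion, with a ratio of H2-K1 to H2-D1 of 0.974, 0.971 and 0.909 unstimulated and 0.936, 0.947 and 0.947 stimulated. Their transcripts are alike, so reads that could come from both make each value uncertain. Both passed under the 5 scalings and count fits tried, with log2 fold changes from -1.29 (quantile normalisation) to -0.61 (edgeR on summed allelic counts) for H2-K1 and to -0.66 (median centring) for H2-D1.

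B2m, the light chain shared by classical and most nonclassical class I molecules, had 1196, 1331 and 1251 RPKM unstimulated and 783, 824 and 909 stimulated. Every stimulated library was below every unstimulated one. B2m fell from 1259 ± 67.9 to 838 ± 64.2 RPKM (SD, n = 3 each, log2 -0.59, SE 0.109, limma adjusted p = 0.00219). The fall did not pass after median centring (log2 -0.33, adjusted p = 0.0551) or when mus and cast counts were summed and tested with edgeR (log2 -0.13, adjusted p = 0.137). Whether the light chain changed less than the heavy chains was not tested.

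The 2 subunits of the peptide transporter went different ways in their values. Tap2 had 42.1, 39.4 and 35.9 RPKM unstimulated and 28.4, 28.1 and 28.1 stimulated, a fall from 39.1 ± 3.14 to 28.2 ± 0.155 (SD, n = 3 each, log2 -0.46, limma adjusted p = 0.000741). Tap1 had 40.8, 35.4 and 32.8 RPKM unstimulated and 41.7, 42.1 and 42.1 stimulated. Its stimulated libraries lay just above the highest unstimulated one, and the difference did not pass (log2 0.21, 95% interval 0.01 to 0.41, limma adjusted p = 0.0544). The ratio of Tap1 to Tap2 was 0.969, 0.899 and 0.914 before stimulation and 1.47, 1.5 and 1.5 after it, which describes the shift without a test. After median centring Tap1 was higher (log2 0.47, adjusted p = 0.00825) and Tap2 did not pass (log2 -0.20, adjusted p = 0.116). Summed allelic counts gave the same calls with edgeR, at 0.68 (adjusted p = 0.000213) and -0.01 (adjusted p = 0.930). Without unstimulated replicate 1 Tap1 passed as deposited (log2 0.29, limma adjusted p = 0.00568).

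Tapbp, which encodes tapasin, the chaperone that edits the peptides of class I molecules, had 70.5, 67.9 and 61.8 RPKM unstimulated and 36.5, 36.8 and 39.2 stimulated. The groups lay far apart relative to their spread, and Tapbp fell 1.78-fold (log2 -0.81, SE 0.067, limma adjusted p = 4.28e-05). On summed allelic counts its log2 fold change was -0.37 (edgeR adjusted p = 0.0102). Zbtb22, a zinc finger gene on the same strand that overlaps Tapbp by 3422 bases in the annotation, was at 11.4 RPKM unstimulated and 8.57 stimulated, below Tapbp in both groups.

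Of the 3 immunoproteasome genes Psmb8 and Psmb9 rose and Psmb10 was slightly lower. Psmb8, the subunit with chymotrypsin-like activity, had 47.2, 45.6 and 41.2 RPKM unstimulated and 75.3, 67.6 and 69.1 stimulated. Psmb8 rose 1.58-fold, with means of 44.6 ± 3.12 and 70.6 ± 4.06 RPKM (SD, n = 3 each, log2 0.65, SE 0.0733, limma adjusted p = 0.000187). Psmb9, which replaces Psmb6, had 18.3, 17.1 and 17.2 RPKM unstimulated and 26.9, 25.8 and 25.4 stimulated. Its groups were tight and separate, and Psmb9 rose 1.48-fold (log2 0.54, SE 0.0547, limma adjusted p = 0.00011). Summed allelic counts gave larger rises of both in edgeR, with log2 values of 1.00 for Psmb8 and 1.11 for Psmb9. Psmb10, which replaces Psmb7, had 27.7, 24.9 and 23.2 RPKM unstimulated and 22, 21.5 and 22 stimulated. Its difference was small and its call fragile: the log2 fold change was -0.20 (limma adjusted p = 0.0387), it was 0.06 after median centring (adjusted p = 0.615), and it passed on leaving out a single library only for unstimulated replicate 3 (adjusted p = 0.00772, against 0.0798 to 0.116 without any other). Psmb9 and Tap1 overlap on opposite strands, and whether counting used the strand is not given in the sources used here, so reads of the 212 shared bases could be counted for either.

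Each immunoproteasome gene was lower relative to its constitutive partner in every stimulated library than in any unstimulated one. Psmb5, Psmb6 and Psmb7 rose, from 20.2 ± 2.62 to 65.3 ± 3.09, from 19.4 ± 2.91 to 50.1 ± 1.38 and from 16.0 ± 1.72 to 36.8 ± 1.21 RPKM (SD, n = 3 each), with log2 fold changes of 1.65, 1.34 and 1.16 (limma adjusted p = 1.13e-05, 3.12e-05 and 2.3e-05). The ratio of Psmb8 to Psmb5 was 2.22, 2.64 and 1.86 before stimulation and 1.10, 1.03 and 1.11 after it. Psmb9 to Psmb6 went from 1.05, 0.956 and 0.759 to 0.521, 0.520 and 0.517, and Psmb10 to Psmb7 from 1.93, 1.58 and 1.30 to 0.575, 0.594 and 0.610. The log2 changes of the 3 ratios were -1.04, -0.81 and -1.42. An exact two-sided permutation test gave p = 0.1 for each, also after adjustment over the 3 ratios, and with 3 libraries against 3 it cannot give less. A ratio within a library does not depend on scaling between libraries.

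**Figure D2:**
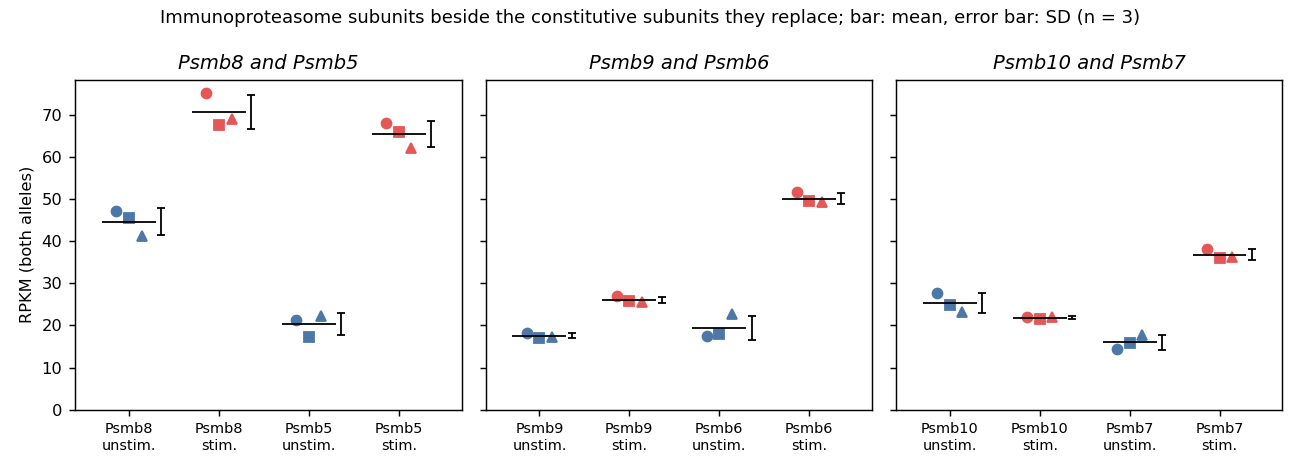
RPKM of both alleles (vertical axis, linear from 0) of each immunoproteasome gene beside the constitutive subunit gene it replaces, unstimulated and stimulated, with points for libraries (circle, square and triangle for replicates 1, 2 and 3), a bar for the mean and an error bar for the SD (n = 3). The mean of Psmb5 goes from 20.2 to 65.3 while that of Psmb8 goes from 44.6 to 70.6, so the pair end close together, and Psmb10 and Psmb7 change places.

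Nlrc5, the transactivator of class I genes, had the largest change of the 10. It was at 47.2, 44.1 and 40.7 RPKM unstimulated and at 13.7, 14.3 and 13.2 stimulated. The lowest unstimulated library was still far above the highest stimulated one. Nlrc5 fell 3.21-fold, from 44.0 ± 3.24 to 13.7 ± 0.582 RPKM (SD, n = 3 each, log2 -1.61, SE 0.0703, limma adjusted p = 3.57e-06). Its fold change was the lowest of the 10 on each scaling tried, at -1.24 on summed allelic counts in edgeR.

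**Figure D3:**
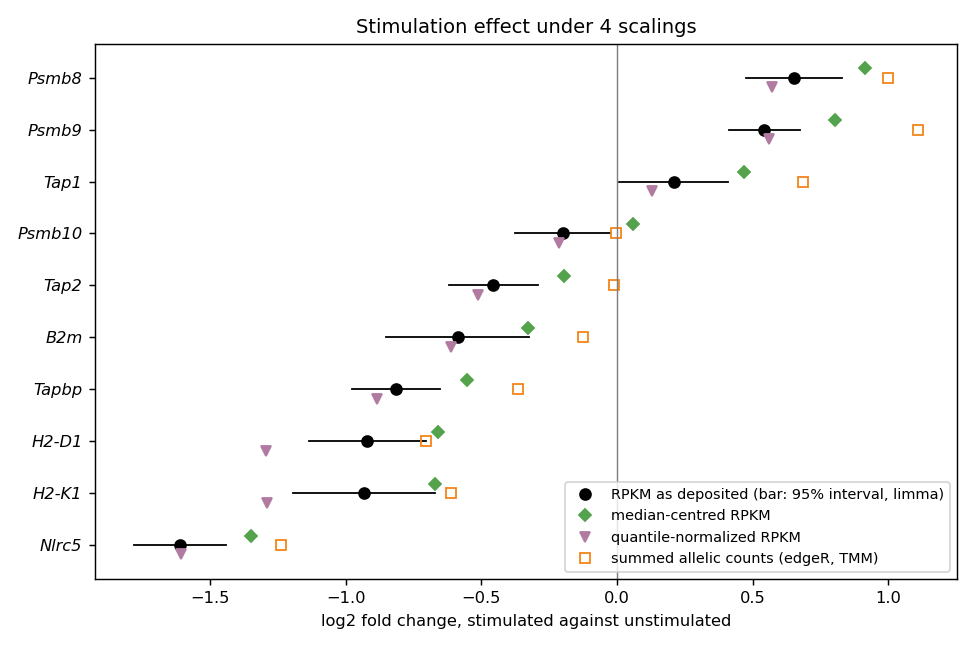
Log2 fold change of stimulated against unstimulated cells (horizontal axis) for the 10 genes under 4 scalings: RPKM as deposited with a 95% limma interval, median-centred RPKM, quantile-normalised RPKM, and summed allelic counts in edgeR. Tap1, Psmb8 and Psmb9 lie above 0 on all 4. H2-K1, H2-D1, B2m, Tap2, Tapbp and Nlrc5 lie below 0 on all 4, with Tap2 at only -0.01 on summed allelic counts. Psmb10 lies at 0.06 after median centring and at -0.20 as deposited.

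Regulators known to act on class I transcription moved in both directions, with 5 of 19 higher, 12 lower and 2 not past the test (limma, median log2 fold change -0.72, and 7 higher and 10 lower after median centring). Of all genes tested 31.2% were called higher and 48.9% lower, or 40.9% and 39.2% after median centring. Ciita, the class II counterpart of Nlrc5, fell from 13.9 ± 4.62 to 1.80 ± 0.718 RPKM (SD, n = 3 each, log2 -2.40). The interferon gamma receptor gene Ifngr1 fell from 89.2 ± 11.3 to 21.4 ± 3.06 RPKM (log2 -2.01), and the receptor's kinase gene Jak1 from 120.3 ± 6.90 to 38.6 ± 1.79 (log2 -1.61). Irf1 and Irf2, interferon regulatory factors, fell by 1.34 and 1.56 on the log2 scale. Among the 5 that rose, named after their values were seen, were Jak2, the other kinase gene of the interferon gamma receptor (log2 1.53), the NF-kB subunit gene Nfkb1 (1.07), the NF-Y subunit gene Nfyb (0.82) and Irf8 (0.61), an interferon regulatory factor. Rfx5, a subunit of the RFX complex that binds class I and class II promoters, had a log2 value of -0.37 as deposited (limma adjusted p = 0.00979), but of -0.11 after median centring, which did not pass, and of 0.05 on summed allelic counts in edgeR.

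The remaining class I heavy chain genes were mostly lower. Of 19 in the list 17 were found in the tables, 16 were tested, 13 were lower, none was higher and 3 (H2-T10, H2-T22 and H2-T23) did not pass (limma, median log2 fold change -1.20, also 13 lower and 0 higher after median centring). The share called lower over all genes tested was 48.9%, or 39.2% after median centring. Without an adjustment for multiple tests the count of higher genes was also 0, and edgeR on summed allelic counts called 2 higher, H2-T10 and H2-T22, and 11 lower. Fcgrt, the neonatal Fc receptor, fell from 10.8 ± 1.21 to 0.182 ± 0.056 RPKM (SD, n = 3 each, log2 -3.32), and Cd1d1, which presents lipids to NKT cells, from 6.18 ± 0.419 to 0.207 ± 0.0625 (log2 -2.57). Hfe, a regulator of iron uptake, fell from 3.56 ± 0.79 to 0.0274 ± 0.0136 RPKM, with a log2 fold change of -2.14 that the pseudocount of 1 makes smaller (-6.45 in edgeR on summed allelic counts). Fcgrt, Cd1d1, Hfe and H2-M2 were each below 1 RPKM in every stimulated library. They met the level needed for testing only through the unstimulated libraries, and so could only be called lower. Leaving out single libraries gave 9 to 13 lower genes in this list. H2-Q4, a nonclassical chain, fell from 107 ± 19.95 to 29.3 ± 0.94 RPKM (log2 -1.82). Members of this family share sequence, and their values are uncertain in the same way as those of H2-K1 and H2-D1.

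Folding factors, peptidases and proteasome assembly factors held more rises than falls, where 31.2% of all genes tested were called higher and 48.9% lower. Of 9 further loading and folding factors 6 were higher, 1 lower and 2 not past the test (limma, median log2 0.44). Canx, the calnexin gene whose product holds new heavy chains, rose with means of 58.6 ± 12.1 and then 132.6 ± 0.383 RPKM (SD, n = 3 each, log2 1.18), Calr, the calreticulin gene, rose by 0.55 on the log2 scale, and Tapbpl, a tapasin-related peptide editor, by 0.57. Lnpep, an aminopeptidase of endosomes, was the one that fell (log2 -1.14), and Erap1, the peptide trimmer of the endoplasmic reticulum, did not pass (log2 -0.10, limma adjusted p = 0.186). Of 6 cytosolic peptidases 3 rose and none fell, Thop1 (log2 2.31), Lap3 (1.47) and Blmh (0.81), while the other 3 did not pass, and all 6 were higher after median centring. Of 9 proteasome activators and assembly factors 8 rose and none fell, led by the assembly chaperone genes Psmg1 (log2 1.66), Psmg2 (1.44) and Pomp (1.29) and by the activator gene Psme3 (0.96).

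Markers of other cells moved with stimulation too, where 31.2% of all genes tested were called higher and 48.9% lower. T cell markers summed to 1809 to 2225 RPKM in the unstimulated libraries and 1807 to 1881 in the stimulated ones (3 of 16 higher and 8 lower, or 5 and 4 after median centring), so the labelled cell type was present in all 6. B cell markers summed to 461 to 805 RPKM unstimulated and 53.9 to 92.3 stimulated (12 of 13 lower), led by Ighm at a mean of 393 RPKM unstimulated. Myeloid markers summed to 1383 to 3812 and then 9.30 to 15.1 RPKM (18 of 18 lower with all libraries, and the 3 still tested without any 1 unstimulated library), led by Lyz2, S100a9 and S100a8, with Adgre1, C1qa, Siglech and Xcr1 at 0 in all stimulated libraries. Most myeloid markers were below 1 RPKM in every stimulated library and met the level needed for testing only through the unstimulated ones. Such markers could only be called lower, and without 1 unstimulated library they were not tested. The same held for some B cell and NK cell markers. NK cell markers summed to 454 to 587 and then 254 to 276 RPKM (9 of 10 lower, Gzma higher), and erythroid and platelet markers to 83.1 to 1342 and then 2.42 to 15.4. Gzma alone stood at 243, 239 and 255 RPKM in the stimulated libraries and made up most of the NK cell sum there. That sum therefore understates the falls of the other 9, among them Tyrobp, with means of 179 and then 4.77 RPKM. MHC class II genes, which B and myeloid cells express, summed to 1022 to 1464 and then 109 to 193 RPKM (10 of 10 lower). B, myeloid and NK cells express class I genes as well, Nlrc5 included, and the part of these lower marker levels in the falls of the 10 genes was not tested. In bulk RNA, fewer cells of a type and less RNA per cell cannot be told apart.

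Unstimulated replicate 3 had the highest sums of B cell, myeloid, NK cell, and erythroid and platelet markers among the 6 libraries. It had the lowest RPKM of its group for 8 of the 10 genes, all but B2m and Psmb9. Its T cell marker sum, 1809 RPKM, was the lowest of its group, against 2121 and 2225 for replicates 1 and 2. Without this library H2-K1 and H2-D1 had log2 fold changes of -1.04 and -1.0, Nlrc5 of -1.66 and Tapbp of -0.87, each at least as large as with it. Those of Tap1 and Psmb8, which lay above 0, were smaller without it, at 0.14 and 0.60. Whether its mix of cells had a part in these values was not tested. Without replicate 3 of both groups, an alternative chosen after seeing the data, 2 of the 10 genes were higher and 7 lower, as with all libraries.

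Allelic counts split the reads that tell mus from cast. The 6 libraries held 9.61 to 20.2 M (mega) such reads, 49.3% to 49.4% of the autosomal ones from cast, and Xist, which this cross expresses from the cast X alone, was read at 99.9% cast or more. How reads were assigned to an allele is not given in the sources used here. The 10 genes had between 279 (Psmb10) and 43677 (B2m) allelic reads per library. In edgeR's quasi-likelihood fit over 12470 autosomal genes, 5 of the 10 were read more from mus in unstimulated cells and 1 more from cast, where 18.5% and 12.2% of all genes were called (30.8% in all). In stimulated cells these counts were also 5 and 1, against 20.5% and 15.4% of all genes (35.9% in all). The allelic shares over all genes, here and below, include genes with as few as 30 allelic reads per group. They are not matched to the depth of the 10, and deeper genes can pass at smaller biases.

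The heavy chains had the most unequal alleles. H2-K1 had cast shares of 23.7%, 24.1% and 25.5% before stimulation and 31.0%, 31.4% and 31.7% after it. H2-D1 had 24.9%, 26.5% and 25.9% unstimulated and 17.6%, 19% and 19.9% stimulated. Each library's 95% exact Clopper-Pearson interval reached less than 1 percentage point to either side, which covers counting error only. The 2 genes started alike and ended apart, and neither had overlapping groups.

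Tested as an interaction of allele and stimulation, the cast to mus ratio of H2-K1 went up by 0.50 on the log2 scale (edgeR adjusted p = 4.45e-06, mean cast share 24.4% ± 0.98 to 31.4% ± 0.33, SD, n = 3 each). That of H2-D1 fell by 0.58 (edgeR adjusted p = 6.18e-06, 25.7% ± 0.81 to 18.8% ± 1.19). Per M allelic reads of the library, both alleles of both genes were lower after stimulation, to unlike extents. These values are scaled to allelic depth alone, and the size of each fall depends on that scaling. The fall of a single allele was not tested. The mus allele of H2-K1 went from 899 ± 188 to 449 ± 37.4 and the cast allele from 289 ± 46.8 to 205 ± 13.9 reads per M (SD, n = 3 each). For H2-D1 the mus allele went from 827 ± 115 to 467 ± 18.1 and the cast allele from 286 ± 34.5 to 108 ± 6.44, which is 1.77-fold and 2.65-fold lower. H2-K1 and H2-D1 are among the most variable genes between mouse strains and resemble each other and further class I genes, so that reads of one may have been assigned to another, and the levels of these shares are uncertain.

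Nlrc5 was read more from mus in both groups and less unequally after stimulation. Its cast shares were 43.5%, 38.4% and 41.3% unstimulated and 47.3%, 45.2% and 47.2% stimulated. All 3 stimulated libraries were above all unstimulated ones, with replicate 2 the lowest of each group. The bias to mus passed in unstimulated cells (edgeR adjusted p = 1.64e-06) and in stimulated cells (adjusted p = 0.00888), and the ratio changed by 0.32 on the log2 scale (adjusted p = 0.0103). Without unstimulated replicate 2 that change did not pass (0.25, edgeR adjusted p = 0.0525), and without stimulated replicate 2 the bias in stimulated cells did not (adjusted p = 0.0895). In reads per M the mus allele of Nlrc5 fell 3.09-fold and the cast allele 2.48-fold.

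**Figure D4:**
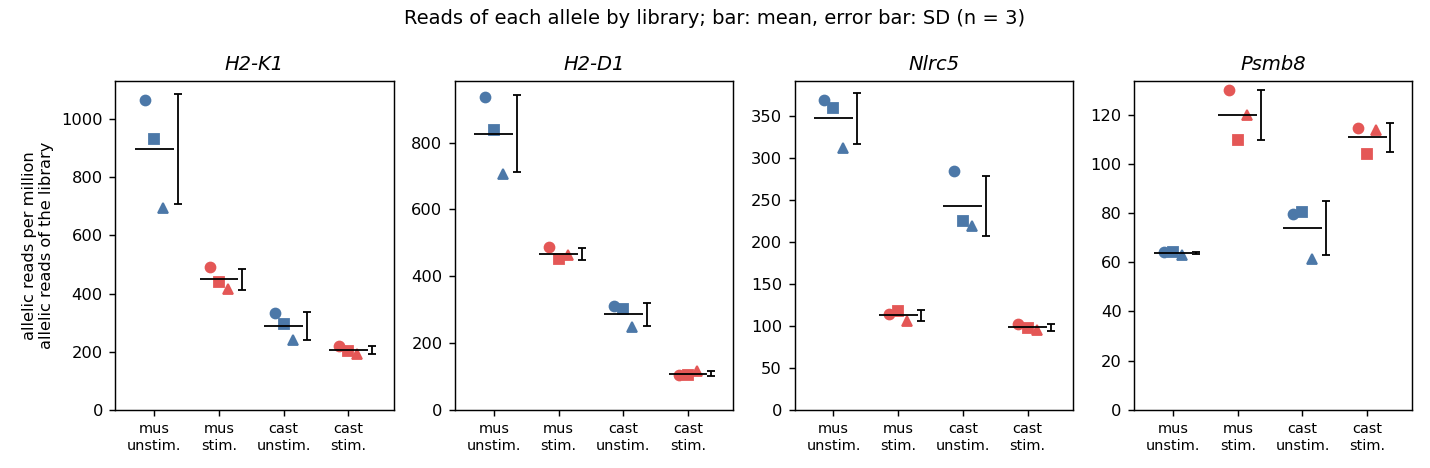
Reads of the mus and the cast allele per M (mega) allelic reads of the library (vertical axis, linear from 0, a scale for each gene) for H2-K1, H2-D1, Nlrc5 and Psmb8, unstimulated and stimulated, with points for libraries (circle, square and triangle for replicates 1, 2 and 3), a bar for the mean and an error bar for the SD (n = 3). Both alleles are lower after stimulation for H2-K1, H2-D1 and Nlrc5 and higher for Psmb8, and the cast allele of H2-D1 goes from 286 to 108.

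Psmb8 had cast shares of 55.5%, 55.7% and 49.2% unstimulated and 46.8%, 48.7% and 48.7% stimulated. The groups did not overlap, but unstimulated replicate 3 was close to the stimulated libraries. The change of -0.31 on the log2 scale did not pass (edgeR adjusted p = 0.0574). It passed with the replicate number as a block (edgeR adjusted p = 0.0147), which was tried because equal numbers shared a pattern in the allelic ratios. It also passed with no read minimum (adjusted p = 0.0397), at least 300 reads (0.0444) and TMM factors per allele (0.0441). Without unstimulated replicate 3 it passed (log2 -0.44, adjusted p = 0.00618), but not without any other single library (adjusted p up to 0.194). In unstimulated cells the bias of Psmb8 to cast passed narrowly (edgeR adjusted p = 0.0479), and leaving out any 1 library ended it (adjusted p = 0.0608 to 0.280), with the exception of unstimulated replicate 3 (adjusted p = 0.00372).

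B2m and Tap1 were read slightly more from mus in both groups. For B2m the share was 47.2% ± 0.46 and then 46.6% ± 0.45 (SD, n = 3 each, edgeR adjusted p = 5.84e-05 and 6.15e-06 for the bias), and for Tap1 46.7% ± 1.06 and then 45.7% ± 0.66 (adjusted p = 0.00454 and 0.000389, the first of which became 0.0562 with TMM factors per allele). Neither ratio's change passed (log2 -0.03 and -0.05, adjusted p = 0.613 and 0.692). Psmb9, at 52.0% and then 53.4%, passed as biased to cast in stimulated cells (edgeR adjusted p = 0.0242), but not without stimulated replicate 1 (adjusted p = 0.106) or 2 (adjusted p = 0.237). Tapbp, at 50.7% and then 52.6%, did not pass there (adjusted p = 0.0600), and passed with the replicate block (adjusted p = 0.0266). Tap2 and Psmb10 passed no allelic test, and Psmb10, with 279 to 524 reads per library, had shares from 42.9% to 51.2% with the widest intervals of the 10.

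In all, the ratio changed towards cast for 2 of the 10 genes (H2-K1 and Nlrc5) and towards mus for 1 (H2-D1). Psmb8 was added towards mus, making 2, with the replicate block, no read minimum, at least 300 reads or TMM factors per allele. Over all autosomal genes tested 5.95% changed towards cast and 4.96% towards mus, 10.9% in all. Shares of the groups did not overlap for 4 of the 10, against 28.3% of all genes. Of 15 further class I heavy chain genes tested, 2 changed towards cast and 1 towards mus. H2-T10 went from 59.7% to 74.2% cast (edgeR adjusted p = 2.95e-06), H2-Q6 from 35.0% to 42.4% (adjusted p = 0.0318) and H2-T22 from 35.8% to 28.0% (adjusted p = 0.0182), genes chosen for mention after their values were seen.

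**Figure D5:**
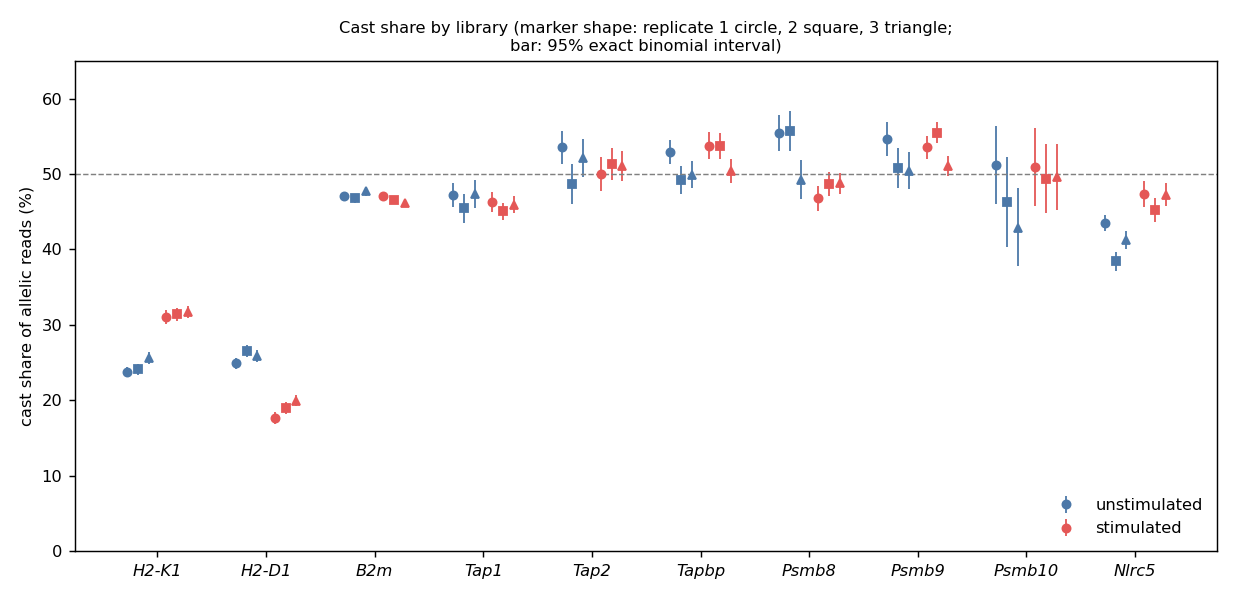
Cast share of allelic reads in percent (vertical axis) of the 10 genes in each library, unstimulated in blue and stimulated in red, with 95% exact binomial intervals and a dashed line at equal shares. H2-K1 and H2-D1 lie near 25% in unstimulated cells and part after stimulation, to 31.4% and 18.8%, while the other 8 genes lie between 38.4% and 55.7%.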

How the data were processed

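RNA-seq of 3 unstimulated and 3 stimulated T cell libraries was analysed from 2 deposited tables. Per the submitters' processing notes, reads were processed with STAR 2.7.1a and featureCounts on mm10. Not given in the sources used here are the alignment settings, gene annotation, use of strand and method of allele assignment. The authors deposited RPKM values for both alleles together and, per the file headers, whole-number counts of mus and cast reads per gene. The 10 genes and all gene lists were chosen with earlier results of these data known.

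Diploid values were tested with limma 3.58.1 (moderated test with trend, two-sided, R 4.3.3) on log2(RPKM + 1), keeping genes that reached 1 RPKM in 3 libraries or more. The pseudocount of 1 makes log2 fold changes of low genes too small, and folds are ratios of mean RPKM. Cast and mus counts were compared with edgeR 4.0.16 (quasi-likelihood, two-sided), with 1 term per library and library sizes shared by both alleles, keeping autosomal genes whose allelic reads in each group summed to 30 or more. Adjustment was by Benjamini-Hochberg over every gene in the fit, with a threshold of 0.05. Both fits were also run on simulated data with far fewer changed genes than were called here, which does not show their error rates on these data. Ratios of proteasome subunits were tested with an exact permutation test of 20 regroupings.

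Named genes were all 10 members, up to 4 genes per pathway list with the largest changes past the threshold, the constitutive subunits, up to 3 markers per other cell type by unstimulated level, 5 regulators (1 of them is not reported here), and the 3 genes nearest to Nlrc5 and H2-K1 in profile. Exceptions are marked in the text. Log2 cast to mus ratios, centred within groups, correlated at 0.28, 0.30 and 0.18 between libraries of equal number over 9043 genes, so a replicate block was also tried on allelic results, as an alternative. Allelic p-values are from the fit without that block unless the text names it. Diploid values did not pair in this way (0.00603, 0.0611 and 0.0908 over 13288 genes). No libraries were alike within sampling noise. Of the table's genes 49326 (99.3%) matched GENCODE M21. Alternatives were another pseudocount (0.1), no filter, median centring, quantile normalisation, other read minimums (none and 300), TMM factors per allele, DESeq2 1.42.0, the replicate block, and leaving out libraries.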

Additional observations from a re-analysis of the deposited data

Results flagged for a closer look

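For 3 of the 10 genes the balance of the alleles differed between unstimulated and stimulated cells by the interaction test in edgeR. The log2 ratio of cast to mus reads of H2-K1 was 0.50 higher after stimulation (adjusted p = 4.45e-06), that of Nlrc5 was 0.32 higher (adjusted p = 0.0103), and that of H2-D1 changed by -0.58 (adjusted p = 6.18e-06). H2-K1 and H2-D1 thus moved in opposite directions from a like start, in 3 of 3 stimulated libraries each. The part of reads shared with other class I genes in this was not tested.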

How the results depend on the processing

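Over 470 alternative values of the 10 genes, 421 kept their direction and their side of the threshold, 28 no longer passed, 14 passed anew and 7 changed sign. The changes of sign were all near 0. Psmb10's stimulation effect was 0.060 after median centring. Its cast to mus ratio in stimulated cells was 0.048 with TMM factors per allele, 0.0019 with the replicate block, and from -0.029 to 0.015 without single libraries. Without single libraries the ratio of Tapbp in unstimulated cells ran from -0.025 to 0.083 and the ratio change of Tap2 from -0.12 to 0.021, with the changed signs without unstimulated replicate 1. The cause was not tested.

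Among the 10 genes, 4 instead of 7 were lower after median centring and on summed allelic counts with edgeR and with DESeq2, and leaving out single libraries gave 6 to 7 lower and 2 to 3 higher. In unstimulated cells 1 gene was biased to cast, against 2 with TMM per allele, 0 with DESeq2 and 0 to 1 without single libraries. In stimulated cells 1 gene was, against 2 with TMM per allele, 2 with the replicate block, 0 with DESeq2 and 0 to 2 without single libraries. The ratio changed towards mus for 1 gene, against 2 with no read minimum, with at least 300 reads, with TMM per allele and with the replicate block, and 1 to 2 without single libraries, and towards cast 1 to 2. The replicate block on diploid values ended the call of Psmb10 (limma adjusted p = 0.0585) and no other of the 10. Leaving out single libraries moved the log2 ratio changes from -1.16 to -0.91 (Psmb8 to Psmb5), -0.95 to -0.71 (Psmb9 to Psmb6) and -1.56 to -1.28 (Psmb10 to Psmb7). Without replicate 3 of both groups, chosen after seeing the data, 2 myeloid, 5 NK cell and 2 erythroid markers were lower. The other myeloid markers, and the other NK cell markers except Gzma, no longer reached 1 RPKM in 3 libraries. They were therefore not tested, so these counts do not show that their falls ended. No erythroid or platelet marker reached 1 RPKM in all stimulated libraries, so the same limit can bear on their count. Allelic depth limits Psmb10, whose intervals are the widest.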

Other observations

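The genes with the profile nearest to that of Nlrc5 over the 6 libraries, by Euclidean distance of log2(RPKM + 1) values centred per gene, were Pgap1 (0.0885), Gm45630 (0.0891) and Olfml3 (0.0968), with log2 fold changes of -1.60, -1.64 and -1.67. Nearest to H2-K1 were Vgll4 (0.0793), Lrrc1 (0.112) and Tatdn2 (0.12), with log2 fold changes of -0.94, -0.90 and -1.0. Distances between 6 values in 2 groups mostly measure the size of the difference between the groups.

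Psme1 and Psme2, the subunits of the proteasome activator that goes with the immunoproteasome, rose by 0.60 and 0.78 on the log2 scale (limma adjusted p = 0.000111 and 7.88e-05), values chosen for mention after they were seen. Psme2 was read at 57.7% cast in unstimulated and 68.4% in stimulated cells (edgeR adjusted p of the change = 0.000954). Of 19 regulators the ratio changed towards cast for 4 and towards mus for 2, against 5.95% and 4.96% of all autosomal genes tested. The following were named after their values were seen. Ifngr1 went from 47.5% to 35.1% cast (edgeR adjusted p = 8.65e-06) while its total level fell, and Ifngr2, the gene of the other receptor chain, went from 49% to 61.3% (adjusted p = 0.00345). Jak2, the receptor's other kinase gene, went from 47.8% to 65.3% (adjusted p = 1.83e-07) while its total level rose, by 1.53 on the log2 scale (limma adjusted p = 1.01e-05).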
